A study of Homo sapiens with 6 samples.

Results

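The genes described here encode the machinery that brings proteins into mitochondria. They comprise every gene on the array whose platform symbol starts with TIMM or TOMM, together with PAM16, DNAJC19, SAMM50, MTX1, MTX2, CHCHD4 and GFER, without antisense transcripts and pseudogenes. The rule found 32 genes on 60 probe sets, of 21357 gene symbols on 54675 probe sets in all. A probe set is a group of short probes summarised as 1 value, which can read more than 1 transcript or gene. The brightest probe set of a gene over the 6 arrays stood for that gene. TIMM23 and its near copy TIMM23B had the same brightest probe set and were counted once, which left 31 units among the 20284 tested.

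HCT116 cells, a human epithelial line derived from a colorectal carcinoma, were transfected by a lipid reagent with small interfering RNAs. In the first group, called CDK4/6 siRNA, a pool against CDK4 and a single siRNA against CDK6 were given at 30 nM each. In the second, called control siRNA, a non-targeting pool and a negative control siRNA were given at 30 nM each. Medium was replaced after 24 h and total RNA was taken 96 h after transfection, with 3 arrays in each group that the titles call biological replicates. Both groups share the cell line and the transfection, and only 1 line was used. The comparison asks how cells adapt their gene expression to reduced CDK4 and CDK6, the kinases that partner the D-type cyclins. MYC, a transcription factor that drives cell growth, is the gene that the title puts at the centre of the adaptation.

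Nearly all mitochondrial proteins are encoded in the nucleus, made in the cytosol and imported. They enter through the TOM complex of the outer membrane and are then handed on by destination. Proteins with a cleavable presequence pass the TIM23 complex and are pulled into the matrix by a motor built on mitochondrial HSP70. Carriers are chaperoned across the intermembrane space by the small TIM proteins and inserted by the TIM22 complex, outer membrane barrels are inserted by the SAM complex, and small cysteine-rich proteins are trapped between the membranes by a disulfide relay.

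Values are log2 expression after RMA, the robust multi-array average, and array medians lay between 5.36 and 5.39. Both siRNA targets were lower in all 3 CDK4/6 siRNA arrays than in any control array, CDK6 at 34.0% and CDK4 at 62.2% of the control level, and MYC was 1.34-fold higher (limma adjusted p = 8.79e-06, 0.000447 and 0.00102). The epithelial markers EPCAM, KRT8, KRT18, KRT19 and CDH1 lay at a gene level percentile of 92.9 or more, while the intestinal markers CDX2 and CDH17 were dim. Of these epithelial markers KRT8 rose by 0.59 and KRT18 by 0.51, CDH1 fell by 0.54, and the part of such shifts in the results was not tested. Of the markers of blood, endothelium and fibroblasts that were measured, COL1A1 alone lay above the level percentile of the dimmest import gene, and it was lower in CDK4/6 siRNA arrays by 0.49 on the log2 scale. Control replicate 3 stood apart for the import genes. It held the lowest of the 3 control values in 28 of 31 units, against 40.2% of all genes. The count and median of the import genes, and some single genes, are therefore also given without it. Other rises shrank without it too, such as TIMM13 from 0.60 to 0.50. DNAJC19 went from 0.25 to 0.20 (limma adjusted p = 0.0456 without it). The 3′ minus 5′ difference of GAPDH control probes, a sign of RNA integrity, ranged from 0.054 to 0.13 in CDK4/6 siRNA arrays and from 0.063 to 0.096 in control arrays. That of beta-actin ranged from 1.39 to 1.49 and from 1.35 to 1.56. Hybridisation spike-ins averaged 10.08 to 10.18 in CDK4/6 siRNA arrays and 10.24 to 10.27 in control arrays. Their part in the results was not tested beyond the rescaling given below.

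Most import genes were higher in CDK4/6 siRNA cells, with at least 1 called gene in each complex of the pathway. Of the 31 units, 21 rose and 0 fell at a limma adjusted p under 0.05, with 10 not passing. Across all genes 27.2% were called, 14.2% higher and 13.0% lower. The median log2 fold change, CDK4/6 siRNA minus control siRNA, was 0.38 for the import genes and -0.0010 for all genes tested. All import genes were fairly bright, from the 60.4th percentile of gene levels upwards, and changes are called more often among bright genes. Of the 7971 units at least as bright as the dimmest import gene, 26.9% were called higher and 22.2% lower, with a median of 0.012. The median size of the 21 changes was 0.49, against 0.35 for all called genes, and 0 of them reached 2-fold. In 26 of 31 units the 3 values of one group did not overlap with those of the other, 25 higher and 1 lower, against 41.1% of all genes, 20.8% higher and 20.3% lower. Neither this share nor the median size of called changes was computed for the bright genes alone. Without control replicate 3 the same count of 21 units rose and the median was 0.34.

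**Figure D1:**
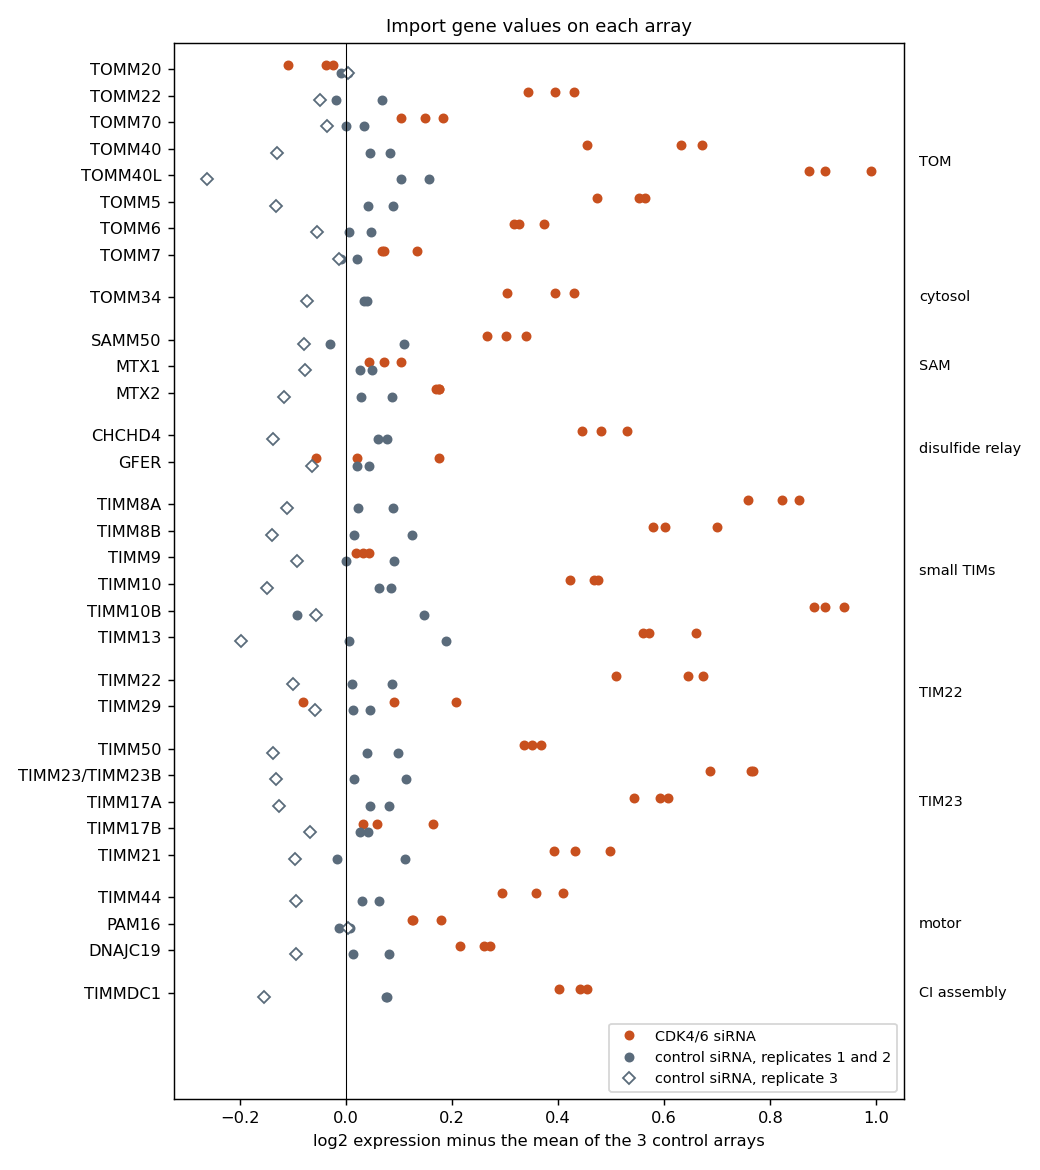
Log2 expression on each array minus the mean of the 3 control arrays (x axis), for the 31 import units grouped by complex (y axis). Circles in orange are CDK4/6 siRNA arrays, filled grey circles are control replicates 1 and 2, and open diamonds are control replicate 3, which is the lowest control in 28 of 31 units.

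In the TOM complex of the outer membrane, 5 of 8 genes rose and 0 fell. TOMM40 is the barrel that forms the pore. It gave 7.91, 8.12 and 8.08 in CDK4/6 siRNA arrays, against 7.54, 7.50 and 7.32 in control arrays. The groups were well separated, with a rise of 0.59 on the log2 scale (SE 0.080, limma adjusted p = 0.000884). TOMM40L, a second gene for a TOMM40-like barrel, changed most of all import genes. Its values were 8.14, 8.03 and 8.06 in CDK4/6 siRNA arrays, against 7.26, 7.31 and 6.89 in control arrays. It rose 1.89-fold, by 0.92 (SE 0.10, adjusted p = 0.000368), or by 0.79 without control replicate 3, whose value was the lowest.

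The receptors, which recognise incoming proteins at the surface, did not move together. TOMM22, a receptor that also organises the complex, gave 11.06, 11.01 and 11.10 in CDK4/6 siRNA arrays, against 10.73, 10.65 and 10.62 in control arrays, a rise of 0.39 (SE 0.057, limma adjusted p = 0.00125). TOMM70 recognises carrier precursors and docks cytosolic chaperones. It gave 10.04, 10.12 and 10.09 in CDK4/6 siRNA arrays, against 9.94, 9.97 and 9.90 in control arrays. Its groups did not overlap, yet the difference of 0.15 did not pass (adjusted p = 0.0792). It was called higher in 5 of 20 alternatives, among them the average over its probe sets (0.16, adjusted p = 0.036). TOMM20, the main presequence receptor, was the one import gene with a negative difference. It gave 12.46, 12.54 and 12.53 in CDK4/6 siRNA arrays, against 12.56, 12.57 and 12.57 in control arrays, a difference of -0.057 that did not pass (adjusted p = 0.502). Its second probe set, at a mean level of 11.49, was lower by 0.39 (SE 0.066, adjusted p = 0.0034 over all probe sets), and with the mean of both the gene was called lower, by 0.22.

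Of the small TOM subunits, which stabilise the pore, TOMM5 rose by 0.53 (SE 0.070, limma adjusted p = 0.00074). Its values were 11.78, 11.69 and 11.76 in CDK4/6 siRNA arrays, against 11.30, 11.25 and 11.08 in control arrays. TOMM6 gave 12.77, 12.73 and 12.72 in CDK4/6 siRNA arrays, against 12.45, 12.41 and 12.35 in control arrays, a rise of 0.34 (adjusted p = 0.00198). The TOMM6 probe sets are also annotated to PRICKLE4, so their signal cannot be assigned to 1 gene. The single TOMM7 probe set, shared with C4orf46, gave 0.091 (adjusted p = 0.253). TOMM34, a cytosolic cochaperone that binds HSP70 and HSP90, gave 8.97, 8.93 and 8.84 in CDK4/6 siRNA arrays, against 8.58, 8.57 and 8.46 in control arrays, and rose by 0.38 (adjusted p = 0.00202).

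The outer membrane sorting genes showed smaller differences. SAMM50, the barrel that inserts other barrels, gave 10.18, 10.14 and 10.21 in CDK4/6 siRNA arrays, against 9.98, 9.84 and 9.80 in control arrays, and rose by 0.30 (SE 0.064, limma adjusted p = 0.00767). Its partners, the metaxins, did not pass. MTX2 gave 10.07 in all 3 CDK4/6 siRNA arrays, against 9.98, 9.93 and 9.78 in control arrays, a difference of 0.17 (adjusted p = 0.081). MTX1 differed by 0.073, and its groups overlapped (adjusted p = 0.419).

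The disulfide relay was split between its enzymes. CHCHD4, the oxidoreductase that puts disulfides into incoming proteins, gave 9.21, 9.12 and 9.16 in CDK4/6 siRNA arrays, against 8.75, 8.74 and 8.54 in control arrays. It rose 1.40-fold, by 0.49 (SE 0.070, limma adjusted p = 0.00111). GFER, the sulfhydryl oxidase that reoxidises CHCHD4, gave 7.55, 7.47 and 7.70 in CDK4/6 siRNA arrays, against 7.57, 7.55 and 7.47 in control arrays. Its groups overlapped, with a difference of 0.047 and a 95% interval from -0.12 to 0.21.

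The small TIM chaperones had the largest median change of the complexes, 0.61, with 5 of 6 genes higher. These proteins shield hydrophobic precursors in the intermembrane space as hexamers, TIMM9 with TIMM10 and TIMM8A with TIMM13. TIMM8A gave 8.09, 8.15 and 8.19 in CDK4/6 siRNA arrays, against 7.36, 7.42 and 7.22 in control arrays, a 1.75-fold rise of 0.81 (SE 0.066, limma adjusted p = 0.000101). Its partner TIMM13 gave 10.40, 10.30 and 10.31 in CDK4/6 siRNA arrays, against 9.93, 9.75 and 9.54 in control arrays, and rose by 0.60 (SE 0.093, adjusted p = 0.00166). Both partners of this hexamer were therefore above every control array in all CDK4/6 siRNA arrays.

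TIMM8B, the paralogue of TIMM8A, gave 11.64, 11.52 and 11.54 in CDK4/6 siRNA arrays, against 11.06, 10.95 and 10.80 in control arrays. It rose by 0.63 (SE 0.076, limma adjusted p = 0.00049). In the other hexamer only one partner passed. TIMM10 gave 9.84, 9.79 and 9.85 in CDK4/6 siRNA arrays, against 9.46, 9.43 and 9.22 in control arrays, and rose by 0.46 (SE 0.072, adjusted p = 0.00174). TIMM9 gave 8.62, 8.61 and 8.63 in CDK4/6 siRNA arrays, against 8.59, 8.68 and 8.50 in control arrays. Its difference was 0.032 with a 95% interval from -0.11 to 0.17, and -0.014 without control replicate 3.

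TIMM10B, a small TIM that sits on the TIM22 complex, had the smallest adjusted p of the import genes. It gave 7.95, 7.91 and 7.89 in CDK4/6 siRNA arrays, against 7.16, 6.92 and 6.96 in control arrays, a 1.88-fold rise of 0.91 (SE 0.072, limma adjusted p = 9.40e-05). TIMM22, the channel that inserts carriers, gave 7.89, 7.73 and 7.86 in CDK4/6 siRNA arrays, against 7.23, 7.31 and 7.12 in control arrays. It rose 1.52-fold, by 0.61 (SE 0.070, adjusted p = 0.0004). TIMM29, another subunit of the same complex, gave 8.02, 7.73 and 7.90 in CDK4/6 siRNA arrays, against 7.83, 7.86 and 7.76 in control arrays. Its CDK4/6 siRNA values were the most spread of any import gene in that group (SD 0.14, n = 3), and its difference of 0.073 did not pass (adjusted p = 0.574).

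In the TIM23 complex of the inner membrane, 4 of 5 units rose. TIMM23 is the channel for presequence proteins. The probe set it shares with TIMM23B gave 11.18, 11.26 and 11.26 in CDK4/6 siRNA arrays, against 10.61, 10.51 and 10.37 in control arrays, a 1.67-fold rise of 0.74 (SE 0.071, limma adjusted p = 0.000186). The probe set annotated to TIMM23B alone was higher by 0.96 and the one annotated to TIMM23 alone, at a mean level of only 3.67, gave -0.023. Which of the 2 genes carried the shared signal cannot be told apart.

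TIMM17A, which builds the translocation path with TIMM23, gave 11.99, 12.06 and 12.04 in CDK4/6 siRNA arrays, against 11.53, 11.49 and 11.32 in control arrays. It rose by 0.58 (SE 0.067, limma adjusted p = 0.000394). Its paralogue TIMM17B gave 7.53, 7.40 and 7.43 in CDK4/6 siRNA arrays, against 7.41, 7.39 and 7.30 in control arrays. Those groups overlapped, with a difference of 0.085 and a 95% interval from -0.054 to 0.22. TIMM50, the receptor that takes over presequences from TOM, gave 9.72, 9.71 and 9.69 in CDK4/6 siRNA arrays, against 9.39, 9.45 and 9.22 in control arrays, and rose by 0.35 (adjusted p = 0.0053). TIMM21, which links the translocase to TOM and to respiratory chain assembly, gave 10.31, 10.42 and 10.35 in CDK4/6 siRNA arrays, against 10.03, 9.90 and 9.82 in control arrays, and rose by 0.44 (adjusted p = 0.00152).

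Of the motor genes, 2 of 3 rose. TIMM44, which tethers mitochondrial HSP70 to the channel, gave 8.11, 7.99 and 8.06 in CDK4/6 siRNA arrays, against 7.73, 7.76 and 7.61 in control arrays, a rise of 0.35 (SE 0.0635, limma adjusted p = 0.00336). DNAJC19, a J-domain protein of the inner membrane, gave 9.21, 9.25 and 9.26 in CDK4/6 siRNA arrays, against 9.07, 9.01 and 8.90 in control arrays. Its rise of 0.25 was the smallest that passed (adjusted p = 0.0157), and without CDK4/6 siRNA replicate 3 it did not pass (0.24, adjusted p = 0.0564). PAM16, the J-like protein that restrains the motor, gave 7.75, 7.76 and 7.81 in CDK4/6 siRNA arrays, against 7.62, 7.64 and 7.64 in control arrays. Its difference of 0.14 did not pass although the groups did not overlap (adjusted p = 0.0704), and it was called higher in 5 of 20 alternatives. TIMMDC1 carries a TIM-like name but acts as an assembly factor of respiratory complex I. It gave 10.37, 10.41 and 10.43 in CDK4/6 siRNA arrays, against 10.05, 10.05 and 9.82 in control arrays, and rose by 0.43 (adjusted p = 0.0024).

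**Figure D2:**
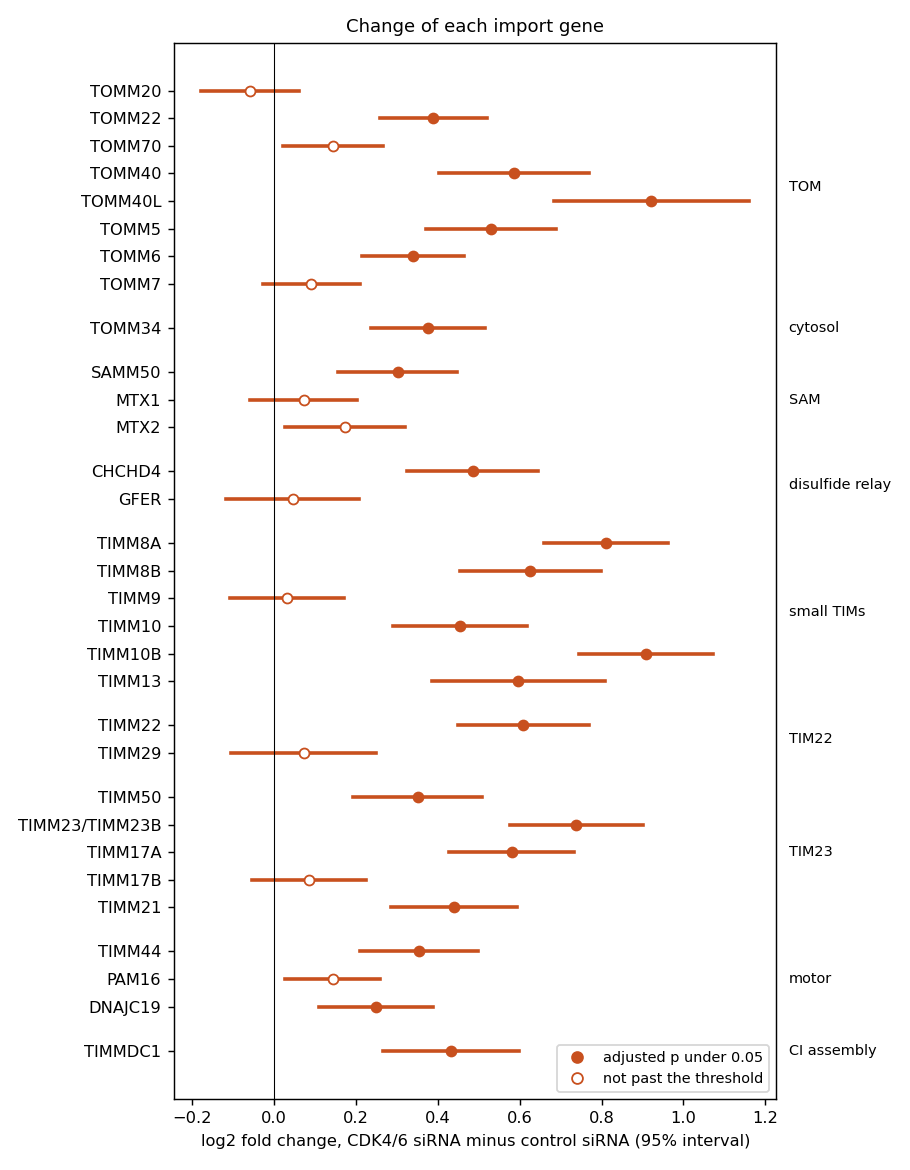
Log2 fold change of each import unit, CDK4/6 siRNA minus control siRNA (x axis), with its 95% interval from limma, n = 3 arrays per group. Filled points passed an adjusted p of 0.05, and the 21 that did all lie right of 0.

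Other probe sets gave a second reading of 21 of the 32 genes, on the same 6 arrays. The other 11 genes had 1 probe set, among them TOMM40, TOMM40L, TOMM34, CHCHD4 and TIMMDC1, which rose. Of 29 further probe sets, 20 had a mean level of 6 or more, and of these 16 were called higher, 1 lower and 3 neither, with p-values adjusted over all probe sets. Further bright probe sets were higher for TOMM22 (0.35), TOMM5 (0.64), TOMM6 (0.37), SAMM50 (0.31), TIMM8B (0.23), TIMM10 (0.59), TIMM10B (0.50), TIMM21 (0.30) and TIMM44 (0.51). Both further TIMM22 probe sets (0.71 and 0.56) and both further shared TIMM23 probe sets (0.86 and 0.77) were also higher. The one lower probe set was that of TOMM20. Of the 9 probe sets with a mean level under 6, 2 were called, both for TIMM17A (0.83 and 0.29). The remainder, among them probe sets of TIMM8A (0.060), TIMM13 (-0.055), TIMM50 (0.12) and GFER (-0.13), did not pass. For these genes it was the only further probe set, so they had no second bright reading.

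Some genes differed between their probe sets. DNAJC19 rose by 0.25 on its brightest probe set and by 0.72 (SE 0.074) on the second, which had a mean level of 7.42. SAMM50 rose on both bright probe sets, while another at a mean level of 6.14 gave -0.20 and did not pass (limma adjusted p = 0.118). For TOMM20 the second probe set alone passed, and it pointed down. RMA compresses the changes of dim probe sets, and which transcripts each probe set reads was not analysed here.

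**Figure D3:**
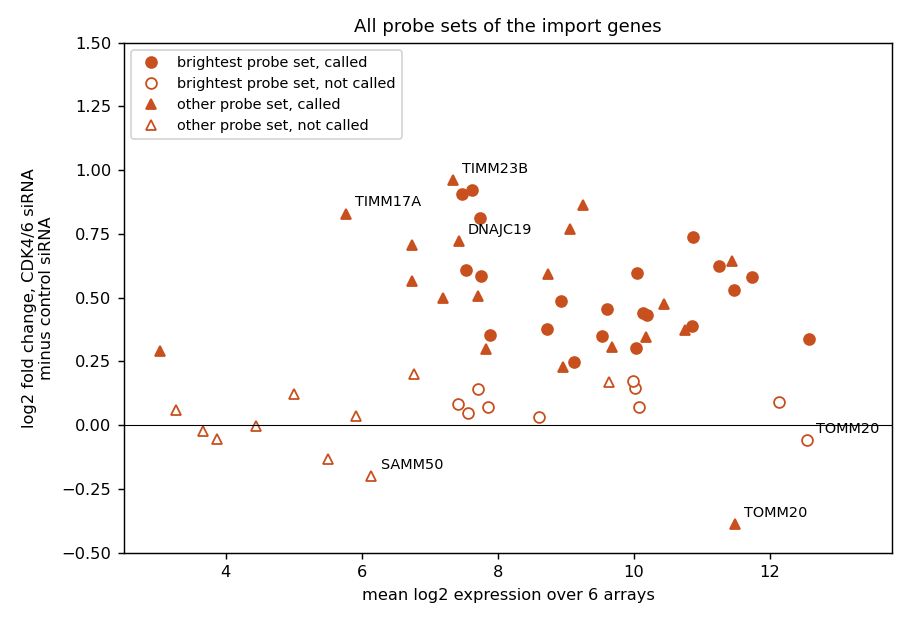
Log2 fold change of all 60 import probe sets, CDK4/6 siRNA minus control siRNA (y axis), against mean log2 expression over the 6 arrays (x axis). Circles are the brightest probe set of a gene and triangles the others; filled symbols passed an adjusted p of 0.05 over all probe sets, and the only filled symbol under 0 is the second TOMM20 probe set.

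Related genes were also set against each other within each array, which removes any scaling common to both. Of 8 pairs written down, 7 were measured. The change of TIMM17A exceeded that of TIMM17B by 0.50 on the log2 scale (95% interval 0.31 to 0.68). That of CHCHD4 exceeded that of GFER by 0.44 (0.23 to 0.65). That of TIMM9 was below that of TIMM10 by a difference of -0.42 (-0.55 to -0.30), and that of TIMM10 below that of TIMM10B by -0.45 (-0.68 to -0.23). In these 4 pairs no CDK4/6 siRNA array overlapped with a control array. Single genes did so in 41.1% of all genes tested, and no share over other gene pairs was computed.

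TOMM40 minus TOMM40L gave -0.34 (95% interval -0.68 to 0.0086) and MTX1 minus MTX2 gave -0.10 (-0.18 to -0.021), again without overlap between arrays. For TIMM8A minus TIMM8B, the difference of 0.18 had an interval from -0.043 to 0.41, and the groups overlapped. The size of some differences depended on the probe sets. With those of each gene averaged, TIMM10 minus TIMM10B came to -0.18 and TIMM8A minus TIMM8B to 0.0074. A two-sided exact permutation test gave p = 0.2 for the TIMM8A pair and 0.1 for each of the other 6, the smallest that 3 arrays against 3 allow, or 0.2 and 0.117 adjusted over the 7 pairs. No pair could therefore pass 0.05 in this test.

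**Figure D4:**
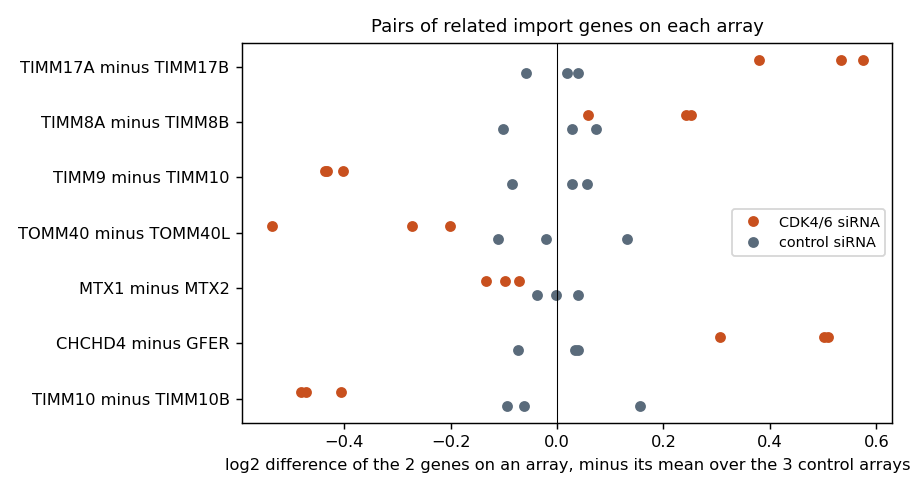
Log2 difference between the 2 genes of each pair on each array, minus its mean over the 3 control arrays (x axis), for 7 pairs (y axis). Orange points are CDK4/6 siRNA arrays and grey points control arrays; the groups overlap only for TIMM8A minus TIMM8B.

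The 250 bases before the start of each gene were searched for 3 motifs on both strands. RefSeq windows of GRCh38.p14 were available for 30 of the 32 genes. CACGTG, the E-box that MYC with MAX can bind, was found in 1 of 30 windows (3.33%), that of TOMM20. It was in 6.49% of all 27305 gene windows and in 7.81% of the 16191 windows of genes tested on the arrays. No share was computed for bright genes. GCGCATGC, the core of the NRF1 site, was found in 4 windows (13.3%, against 2.81% of all and 3.72% of tested genes), those of CHCHD4, TOMM7, TIMM9 and PAM16. CCGGAAGT, bound by ETS factors such as GABPA, was found in 7 windows (23.3%, against 3.64% of all and 5.06% of tested genes). These were TOMM6, TIMM10, TIMM10B and TIMMDC1, which rose, and TOMM20, TOMM70 and TIMM29, which did not pass. In all, 5 of the 20 windows of called genes and 6 of the 10 of the others held NRF1 or ETS letters. These are matches of letters and describe no binding. Only these exact letters before the start were searched. The differences between these shares, and any part of these factors in the changes, were not tested.

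The windows below are those of the 2 genes with the smallest adjusted p, TIMM10B and TIMM8A, and the windows of TOMM20 and CHCHD4, chosen after their matches were seen. They run 5′ to 3′ along the gene and end at the base before its start, in GRCh38.p14, with the matches in capitals. TIMM10B lies on the plus strand at chr11:6481251-6481500 and its match, 46 to 39 bases before the start, is the ETS motif on the opposite strand. TIMM8A lies on the minus strand at chrX:101348743-101348992 and has no match. CHCHD4 lies on the minus strand at chr3:14124871-14125120, with 2 overlapping NRF1 matches 152 to 143 bases before the start. TOMM20 lies on the minus strand at chr1:235128838-235129087, with the E-box 168 to 163 and the ETS motif 22 to 15 bases before the start.
TIMM10B: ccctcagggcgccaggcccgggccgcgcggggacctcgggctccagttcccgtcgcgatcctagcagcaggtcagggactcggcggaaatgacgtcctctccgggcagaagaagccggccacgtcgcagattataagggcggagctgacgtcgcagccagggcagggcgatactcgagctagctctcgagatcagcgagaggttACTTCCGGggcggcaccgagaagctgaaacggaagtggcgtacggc
TIMM8A: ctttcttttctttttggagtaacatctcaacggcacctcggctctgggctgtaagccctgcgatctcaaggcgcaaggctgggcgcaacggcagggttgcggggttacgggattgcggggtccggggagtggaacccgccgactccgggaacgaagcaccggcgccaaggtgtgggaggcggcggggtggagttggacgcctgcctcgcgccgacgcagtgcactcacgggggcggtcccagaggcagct
CHCHD4: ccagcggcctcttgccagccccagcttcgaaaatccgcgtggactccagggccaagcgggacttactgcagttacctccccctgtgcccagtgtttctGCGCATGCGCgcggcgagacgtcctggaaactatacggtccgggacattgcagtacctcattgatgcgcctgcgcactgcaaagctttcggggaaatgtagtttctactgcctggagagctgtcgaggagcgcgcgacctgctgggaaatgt
TOMM20: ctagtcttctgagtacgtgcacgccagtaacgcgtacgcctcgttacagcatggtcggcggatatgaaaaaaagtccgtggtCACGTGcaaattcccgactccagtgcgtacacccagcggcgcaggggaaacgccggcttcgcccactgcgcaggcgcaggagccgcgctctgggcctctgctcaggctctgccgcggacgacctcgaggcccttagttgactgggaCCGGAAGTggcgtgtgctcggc

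Other genes of the pathway were described from a list of 42 import partners. Of 41 measured, 15 rose and 2 fell (36.6% and 4.88%), with a median of 0.13, against 14.2% and 13.0% of all genes and 26.9% and 22.2% of the bright genes above. The smallest adjusted p-values belonged to cytosolic chaperones that keep precursors unfolded, while the largest change was that of BCS1L (0.71, SE 0.13, limma adjusted p = 0.00356), an inner membrane ATPase that inserts the Rieske protein into complex III. DNAJA1, an HSP70 cochaperone, gave 11.81, 11.80 and 11.84 in CDK4/6 siRNA arrays, against 11.22, 11.16 and 11.08 in control arrays, a rise of 0.67 (SE 0.057, limma adjusted p = 0.000121). HSPA8, the constitutive HSP70, rose by 0.59 (adjusted p = 0.000132) on a probe set that is also annotated to 2 small nucleolar RNAs in its introns. HSP90AA1 (0.089) and HSP90AB1 (0.094) did not pass.

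Inside mitochondria, 5 of 8 chaperones and motor partners rose, among them the chaperonin partner HSPE1 (0.42), the J-protein DNAJA3 (0.40) and mitochondrial HSP70 itself, HSPA9 (0.28). PMPCA, one subunit of the peptidase that removes presequences, rose by 0.42 (SE 0.063, limma adjusted p = 0.00135), while the other subunit, PMPCB, gave -0.034 and did not pass. MICOS10, a subunit of the cristae organising complex, rose by 0.48 (adjusted p = 0.000844). The 2 partners that fell were the metaxin gene MTX3 (-0.28), and PINK1 (-0.18), the kinase that accumulates on mitochondria with failing import. With any single array left out other than control replicate 1, only 1 partner was called lower.

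For the proteins that these routes carry, only transcripts were measured, and these moved in both directions. Of 23 measured genes of the mitochondrial carrier family, most of them inner membrane proteins handled by the small TIMs and TIM22, 11 rose and 3 fell (47.8% and 13.0%, median 0.25). Of all genes 14.2% rose and 13.0% fell, and of the bright genes above 26.9% and 22.2%. Some carriers, called or not, were dimmer than all of those bright genes, among them SLC25A13 and SLC25A44. The bright genes are therefore not matched in level to the carriers. SLC25A13, an aspartate and glutamate carrier, gave 7.45, 7.48 and 7.58 in CDK4/6 siRNA arrays, against 6.46, 6.56 and 6.23 in control arrays, a 2.12-fold rise of 1.08 (SE 0.086, limma adjusted p = 9.57e-05), which came to 0.57 when its probe sets were averaged. SLC25A32 (0.50), a mitochondrial folate or flavin carrier, SLC25A44 (0.55), a carrier of branched-chain amino acids, SLC25A46 (0.46), an outer membrane member of the family, and SLC25A39 (0.31) rose as well, and SLC25A40 fell by 0.43. The abundant phosphate and adenine nucleotide carriers SLC25A3 (0.047) and SLC25A5 (-0.069) did not pass, and SLC25A4 fell by 0.18. Without CDK4/6 siRNA replicate 3 or control replicate 2 the number of carriers that fell was 1.

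Of 20 twin cysteine proteins, the class that CHCHD4 and GFER oxidise, 5 rose and 2 fell (25% and 10%, median 0.087), and the share that rose was near the 26.9% of bright genes, so it is no result about this class. COA4 (0.44), TRIAP1 (0.38), NDUFB10 (0.29) and CHCHD10 (0.31) rose, as did NDUFS5 (0.32) on a probe set also annotated to RPL10. CHCHD7 (-0.39, or -0.17 with its probe sets averaged) fell, and so did COX17 (-0.26), a copper chaperone for cytochrome oxidase, on a probe set also annotated to POPDC2. The number that fell was 1 without CDK4/6 siRNA replicate 1 or control replicate 2 and 3 without control replicate 3. None of these lists was tested as a set, and differences between lists were not tested.

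**Figure D5:**
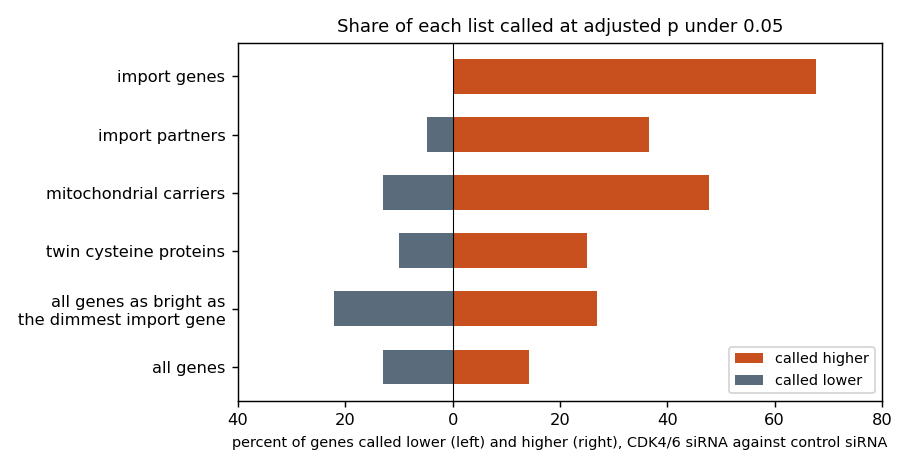
Percent of each list called lower (left of 0, grey) and higher (right of 0, orange) in CDK4/6 siRNA arrays against control siRNA arrays at an adjusted p under 0.05. Import genes reach 67.7% higher and 0% lower, against 14.2% and 13.0% of all genes.

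Scaling to the hybridisation spike-ins moved the counts of import genes called. Quantile normalisation again, median centring and cyclic loess each gave 21 higher and 0 lower, the counts of the deposited values. RMA makes the distributions of the arrays alike, so a change is read against most other genes. With arrays scaled to the hybridisation spike-ins the all-gene median was 0.11, and 78.1% of calls were higher, against 52.2% as deposited. Such scaling shifts all genes alike, and here upwards, so the direction of genes that rose could not turn. On that scale 26 import units rose and 0 fell, with a median of 0.48, and TOMM70 (0.25), TOMM7 (0.20), MTX2 (0.28), TIMM17B (0.19) and PAM16 (0.25) passed as well. TOMM20 turned to 0.051 and did not pass. Relative to the median of all genes the same scale gave 0.92 for TOMM40L, 0.91 for TIMM10B and 0.033 for TIMM9.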

How the data were processed

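Total RNA from 6 HCT116 samples was hybridised to 1-colour arrays. The deposited values are log2 expression per probe set, made by the authors with RMA per the submitters' processing notes, with the version not given in the sources used here. The number of arrays, 3 per group, limits the precision. All value columns matched a sample. Of 54675 probe sets, 62 controls were left out, 41097 carried 1 gene symbol in the platform annotation, 1801 several and 11777 none, and 0 symbols needed updating.

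The brightest probe set stood for each gene, and 20284 distinct probe sets were tested with limma 3.58.1 in R 4.3.3 (lmFit and eBayes), with Benjamini-Hochberg adjustment over all of them and a threshold of 0.05. Called means past that threshold. The fitting script was tested on simulated data. Pairs were tested with two-sided exact permutation tests. The titles call the arrays biological replicates but do not say whether they came from separate cultures or days. The p-values therefore reflect only how far these arrays scattered, which may in part be technical.

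Members and lists were chosen with earlier results of these data known. Every member is named. Of the other lists, up to 6 genes with the smallest adjusted p are named by rule, and BCS1L, MTX3, PINK1, HSPA9, HSP90AA1, HSP90AB1, PMPCB, SLC25A3, SLC25A4, SLC25A5 and COX17 were added after their values were seen. Alternatives changed the scaling, the probe set chosen, filters, the variance model, the threshold, the replicate block and single arrays. Promoter windows came from RefSeq. Protein sequences were not used here. Figures were drawn with matplotlib 3.10.9.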

Additional observations from a re-analysis of the deposited data

How the results depend on the processing

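Under 20 alternatives the number of import units called higher lay between 14, among the 23 units left with plain-name probe sets only, and 26 with spike-in scaling, and it was 20 to 21 with single arrays left out. The number called lower was 1 when the probe sets of a gene were averaged and 0 otherwise, also with single arrays left out. The median change was 0.48 with spike-in scaling, 0.30 with plain-name probe sets and 0.34 to 0.40 with single arrays left out. Of the 21 units called higher, 16 kept the call under each alternative that gave them a value, which was 18 to 20 of the 20, with fewer than all for 5 of them. SAMM50 (0.10) and TIMM50 (0.24) lost it when probe sets were averaged, TIMM50 (0.12, adjusted p = 0.532) also with plain-name probe sets, and DNAJC19 at a threshold of 0.01. Averaged probe sets also moved TIMM8A to 0.44, TIMM13 to 0.27 and DNAJC19 to 0.49, and plain-name ones TIMM8B to 0.23 and DNAJA1 to 1.06. Signs turned for TOMM20 with spike-in scaling (0.051), for GFER with averaged probe sets (-0.042), plain-name probe sets (-0.13) and without CDK4/6 siRNA replicate 3 (-0.018, range -0.018 to 0.098 with single arrays left out), for TIMM23 with 1-symbol probe sets (-0.023), for TIMM13 with plain-name probe sets (-0.055) and for TIMM9 without control replicate 3 (-0.014, range -0.014 to 0.078). A dim probe set stands for TIMM23 in the 1-symbol setting and for TIMM13 and TIMM50 in the plain-name one. The cause of these and of the other changes was not tested. No pair difference changed direction in the 13 to 14 alternatives run for it, but some of these could not change it. Median centring and spike-in scaling shift both genes of a pair alike. Leaving out the dimmest 25% of units, or using 1-symbol probe sets, kept the same probe sets for these pairs. Under these settings every pair difference equalled its main value, so only the remaining alternatives tested the direction. Among those, TIMM8A minus TIMM8B was 0.58 and TIMM17A minus TIMM17B 0.74 with plain-name probe sets.

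Over all genes 9302 probe sets were called with adjustment over all probe sets, 3469 genes at a threshold of 0.01, and 4406 to 4931 with single arrays left out, against 5522. Import partners called higher numbered 27 with spike-in scaling and 13 to 15 with single arrays left out. Partners called lower numbered 0 with spike-in scaling, 1 with median centring, plain-name probe sets, adjustment over all probe sets or the threshold of 0.01, and 1 to 2 with single arrays left out. Carriers called lower numbered 1 with spike-in scaling or the threshold of 0.01 and 1 to 3 with single arrays left out. Twin cysteine genes called higher numbered 10 with spike-in scaling, 3 with plain-name probe sets and 5 to 6 with single arrays left out. Those called lower numbered 1 with spike-in scaling, 1-symbol or plain-name probe sets, no variance moderation or the threshold of 0.01, and 1 to 3 with single arrays left out.

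Replicate numbers did not pair the arrays: deviations from the group means correlated by -0.0079, -0.12 and -0.0047 between arrays of the same number. With the replicate number as a block, 4917 genes and 21 import units were called, with those 21 all higher, 1 partner was called lower, and no other count moved by over 1.5 times.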
